A study of Mus musculus with 6 samples.

Results

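The mature products of the miR-23, miR-27 and miR-24 hairpins were followed in extracellular vesicles (EVs), small membrane-enclosed parcels shed by cells, from mouse hepatocytes. The members are the 8 products mmu-miR-23a-3p, mmu-miR-23a-5p, mmu-miR-23b-3p, mmu-miR-23b-5p, mmu-miR-27a-3p, mmu-miR-27b-3p, mmu-miR-24-3p and mmu-miR-24-2-5p, taken by name from the 474 miRNAs listed in each library. EVs came from primary hepatocytes of ApoE KO mice fed the HFHC diet (HFHC-EV, 3 libraries) or a chow diet (Chow-EV, 3 libraries), so both groups lack ApoE, a lipoprotein ligand whose loss raises plasma cholesterol and causes atherosclerosis. The labels give neither the composition and duration of the HFHC diet nor the age and sex of the mice, nor how many mice stood behind a library, so p-values measure the spread between these libraries. Since EVs were measured in bulk, fewer vesicles or source cells of a kind and less RNA in each cannot be told apart. Values are RPM, read counts that the authors scaled to the size of a library, on which 1 read was worth about 0.05 RPM, and each library held 27673 to 65775 miRNA reads, 0.138% to 0.344% of the reads that the values were scaled to. The study concerns fatty liver, atherosclerosis and the export of cholesterol from foam cells, and sets the miRNA cargo of the EVs side by side under the diets. The summed miRNA RPM was 1.57, 1.60 and 1.65 times as high in HFHC-EV as in Chow-EV in the pairs of libraries numbered 1, 2 and 3.

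In mammals, miR-23, miR-27 and miR-24 are made from a pair of gene clusters, each of which carries 1 hairpin of each family in that order. Cluster a lies on mouse chromosome 8 and cluster b on chromosome 13. The hairpins of a cluster are cut from 1 primary transcript, Dicer then releases a 5p and a 3p strand from each, and the strand kept in Argonaute pairs with target transcripts mainly through its seed. miR-27 is known for repressing regulators of lipid handling such as the nuclear receptor Pparg and the cholesterol exporter Abca1, and miR-24 for acting on cell-cycle genes. All are abundant in endothelial and myeloid cells.

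The mature sequences are shown 5′ to 3′ because they set which members share targets and which can share reads; capitals mark the seed, bases 2 to 8. They come from the RefSeq annotation of GRCm38.p6, in which 7 of the 8 members were matched, all but miR-23b-3p.
mmu-miR-23a-3p: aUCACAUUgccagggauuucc
mmu-miR-27a-3p: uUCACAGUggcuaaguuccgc
mmu-miR-27b-3p: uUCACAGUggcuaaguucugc
mmu-miR-24-3p: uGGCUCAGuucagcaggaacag
mmu-miR-23a-5p: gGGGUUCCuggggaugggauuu
mmu-miR-23b-5p: gGGUUCCUggcaugcugauuu
mmu-miR-24-2-5p: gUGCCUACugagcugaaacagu

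miR-27a-3p and miR-27b-3p have the same seed and the same first 18 bases, and differ by the single substitution C19U, counted from the 5′ end of miR-27a-3p. No other of the 348 listed miRNAs with a RefSeq sequence has that seed. None of them shares the seed of miR-23a-3p or of miR-24-3p. miR-23b-3p had no sequence and is not among the 348. Whether it has the seed of miR-23a-3p, or could share reads with it, was therefore not tested. The 5p strands are less alike. miR-23a-5p and miR-23b-5p share a run of 10 bases that begins at base 2 of miR-23a-5p and at base 1 of miR-23b-5p, so their seeds differ, while miR-24-2-5p has the seed of miR-24-1-5p from the other cluster. How reads that fit more than 1 of these products were assigned is not given in the sources used here.

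Cluster a spans 404 bases of the plus strand of chromosome 8, with Mir23a at chr8:84208518-84208592, Mir27a at chr8:84208672-84208758 and Mir24-2 at chr8:84208815-84208921 (GRCm38). In GENCODE M21, Mir24-2 overlaps an exon of the lincRNA Gm26532 and the other hairpins overlap no other gene. Cluster b spans 792 bases of the plus strand of chromosome 13, with Mir23b at chr13:63300484-63300557, Mir27b at chr13:63300712-63300784 and Mir24-1 at chr13:63301208-63301275. All hairpins of cluster b lie inside the protein-coding gene 2010111I01Rik on the same strand, Mir23b in an intron and the others overlapping an annotated exon, and in an intron of Fancc on the opposite strand. The RefSeq hairpins of Mir23a, for its strands, and of both miR-24 genes, for their shared 3p product, have the mature products in capitals.
Mir23a: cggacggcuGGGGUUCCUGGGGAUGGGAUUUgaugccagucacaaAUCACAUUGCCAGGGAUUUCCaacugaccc
Mir24-2: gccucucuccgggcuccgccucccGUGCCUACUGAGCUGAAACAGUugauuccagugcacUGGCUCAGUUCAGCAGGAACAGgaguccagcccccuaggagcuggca
Mir24-1: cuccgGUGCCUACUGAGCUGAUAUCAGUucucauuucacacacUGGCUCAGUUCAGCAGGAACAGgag

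Both miR-24 hairpins hold the same miR-24-3p, so its value sums the clusters, whereas the 5p strands differ and are counted apart.

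The 8 members together made up 6.15%, 5.03% and 10.5% of the miRNA reads in HFHC-EV replicates 1, 2 and 3 (exact binomial 95% confidence intervals 5.94 to 6.38, 4.82 to 5.24 and 10.3 to 10.8). In Chow-EV replicates 1, 2 and 3 they made up 7.44%, 5.95% and 11.6% (7.15 to 7.74, 5.67 to 6.23 and 11.3 to 11.9). The share was lower in HFHC-EV in each same-numbered pair, and in both diets it was highest in replicate 3. These and all later binomial intervals, and the limits that a count of 0 allows, cover counting error only, since reads without molecular identifiers are not independent molecules. Ranked by mean RPM over all libraries, miR-24-3p was 5th, miR-23a-3p 17th, miR-27a-3p 23rd, miR-23b-3p 34th, miR-27b-3p 41st, miR-23a-5p 49th, miR-23b-5p 98th and miR-24-2-5p 121st of the 474.

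**Figure D1:**
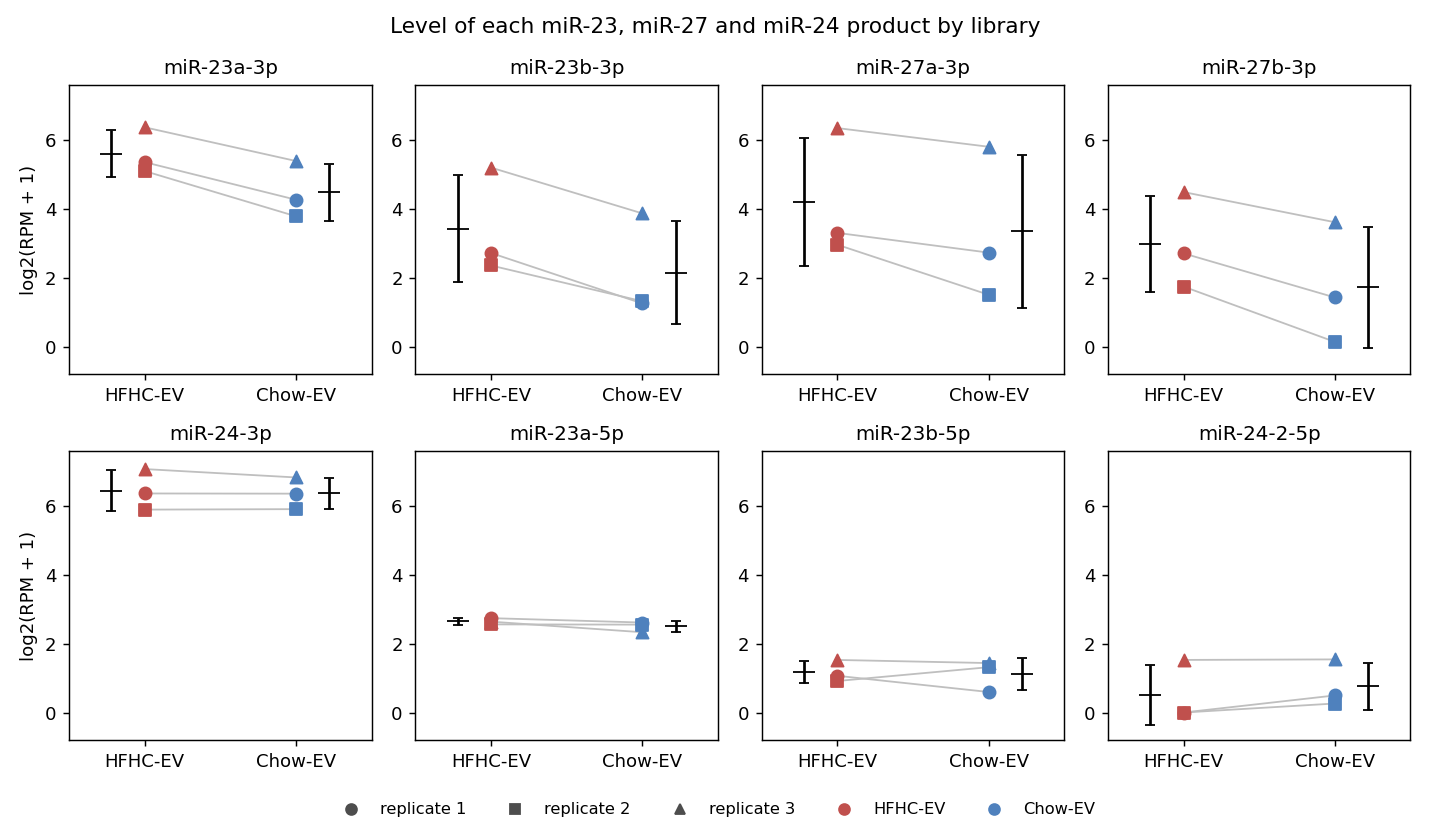
Level of each member in log2(RPM + 1) in HFHC-EV (red, left) and Chow-EV (blue, right); circles, squares and triangles are replicates 1, 2 and 3, grey lines join libraries with the same number, and black bars show the mean and SD of 3 libraries. For miR-23a-3p, miR-23b-3p, miR-27a-3p and miR-27b-3p every line is higher at HFHC-EV, replicate 3 lies above the others in both diets, and the diets overlap.

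The miR-23 and miR-27 3p strands, the main products of their hairpins, were each higher in HFHC-EV than in the Chow-EV library of the same number, in 3 of 3 pairs, but the ranges of the diets overlapped. After TMM scaling, which evens out the typical miRNA between libraries, this held for all but miR-27a-3p, which was higher in 2 of 3 pairs. miR-23a-3p had 40.0, 33.2 and 81.7 RPM in HFHC-EV replicates 1, 2 and 3, against 18.2, 12.8 and 40.9 RPM in Chow-EV. The folds within the pairs were 2.19, 2.60 and 2.00, all above that of the summed miRNA RPM. miR-23b-3p had 5.58, 4.12 and 35.7 RPM in HFHC-EV, against 1.38, 1.49 and 13.6 RPM in Chow-EV, with pair folds of 4.04, 2.76 and 2.63. These too exceed the fold of the summed RPM in all 3 pairs. The miR-23b-3p values of Chow-EV replicates 1 and 2 rest on 27 and 30 reads.

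miR-27a-3p had 8.87, 6.77 and 80.4 RPM in HFHC-EV, against 5.63, 1.84 and 54.9 RPM in Chow-EV. Its pair folds were 1.57, 3.68 and 1.46, so it exceeded the fold of the summed RPM in the pair numbered 2, lay next to it in the pair numbered 1 and under it in the pair numbered 3. miR-27b-3p had 5.53, 2.35 and 21.4 RPM in HFHC-EV, against 1.69, 0.099 and 11.2 RPM in Chow-EV, where the value of replicate 2 rests on 2 reads. In the other pairs its folds were 3.27 and 1.91.

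miR-24-3p, the most abundant member, stood at almost the same RPM in both diets, but was lower in HFHC-EV in 3 of 3 pairs after TMM scaling. It had 81.3, 58.5 and 133.5 RPM in HFHC-EV, against 80.99, 59.0 and 112.6 RPM in Chow-EV, with pair folds of 1.00, 0.990 and 1.19. All 3 lie under the fold of the summed miRNA RPM.

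The 5p strands were low and had similar RPM in both diets; after TMM scaling miR-23a-5p and miR-23b-5p had negative log2 fold changes. miR-23a-5p had 5.69, 4.90 and 5.23 RPM in HFHC-EV, against 5.12, 4.87 and 4.04 RPM in Chow-EV, which was the narrowest spread of any member relative to its mean. miR-23b-5p had 1.10, 0.886 and 1.88 RPM in HFHC-EV, against 0.512, 1.49 and 1.71 RPM in Chow-EV, on 10 to 36 reads per library. miR-24-2-5p had no read in HFHC-EV replicates 1 and 2 and 1.88 RPM in replicate 3, against 0.410, 0.199 and 1.91 RPM in Chow-EV; a count of 0, taken to allow 3 reads, allows up to 0.156 RPM in each of those 2 HFHC-EV libraries. The ranges of the diets overlapped in RPM for all 8 members, whereas 49% of the 104 miRNAs whose mean reached 1 RPM had ranges that did not.

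**Figure D2:**
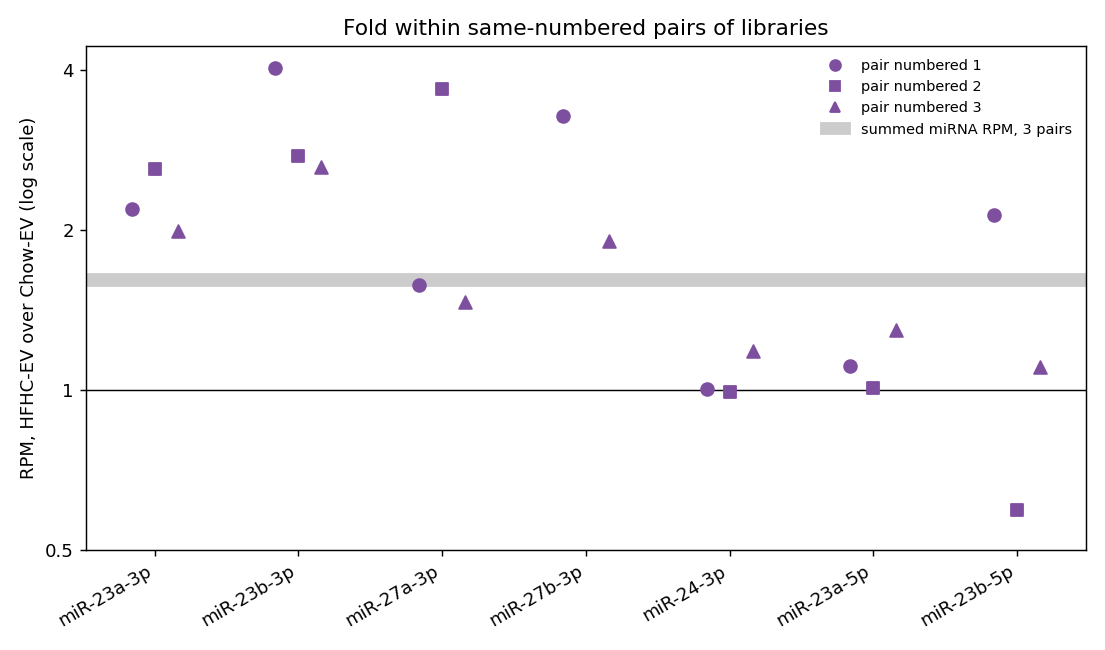
Ratio of RPM in HFHC-EV over Chow-EV within each pair of libraries with the same number, on a log axis with base 2, for the members tested; the grey band spans the ratio of the summed miRNA RPM in the 3 pairs. The pair numbered 2 is left out for miR-27b-3p, whose Chow-EV value rests on 2 reads; all points of miR-23a-3p and miR-23b-3p lie above the band and all points of miR-24-3p and miR-23a-5p below it.

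The diets were compared with limma-trend on log2(RPM + 1) across the 104 miRNAs whose mean reached 1 RPM, of which 7 are members; miR-24-2-5p lay under that filter. At a Benjamini-Hochberg adjusted p under 0.05 over all 104, none of the 7 was called higher, where 24% of the tested miRNAs were, and none was called lower, where 4.81% were. None was under 0.05 unadjusted either. The median log2 fold change was 0.86 over the 7 members and 0.51 over the 104. miR-23a-3p averaged 51.6 ± 26.2 RPM in HFHC-EV and 23.97 ± 14.9 RPM in Chow-EV (SD, n = 3 each), a log2 fold change of 1.13 (SE 0.55, limma adjusted p = 0.19). The log2 fold changes of miR-23b-3p, miR-27b-3p and miR-27a-3p were 1.28 (SE 1.10), 1.25 (SE 1.14) and 0.86 (SE 1.47), with limma adjusted p of 0.44, 0.47 and 0.77. For miR-24-3p, at 91.1 ± 38.5 RPM in HFHC-EV and 84.2 ± 26.9 RPM in Chow-EV (SD, n = 3 each), it was 0.08, with a 95% interval from -0.90 to 1.06 (limma adjusted p = 0.92). For miR-23a-5p it was 0.15 and for miR-23b-5p 0.05 (limma adjusted p = 0.47 and 0.92). In the fit without the filter miR-24-2-5p had -0.26 (SE 0.54, limma adjusted p = 0.85).

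Libraries with the same replicate number deviated from their diet means together, so the fit with the number as a block compares HFHC-EV and Chow-EV within pairs. In RPM with the block, limma called 4 of the 7 members higher, against 66.3% of all 104 miRNAs, and 0 lower, against 7.69%. The 4 were miR-23a-3p, miR-23b-3p, miR-27b-3p and miR-27a-3p (limma adjusted p = 2.3e-23, 6.8e-15, 1.9e-14 and 6.0e-09). These p rest on a variance pooled over all miRNAs, with 2 residual degrees of freedom and 208 in total. Of the 7 members tested, 5 had higher RPM in HFHC-EV in all 3 pairs, near the 70.2% of all tested miRNAs of which that is true.

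Rescaling the RPM with TMM, which takes the typical miRNA as unchanged, brought the median log2 fold change over the 104 to 0.07. On that scale miR-24-3p had 72.2, 53.5 and 83.8 RPM in HFHC-EV, against 107.9, 89.3 and 109.3 RPM in Chow-EV. The diets did not overlap, as for 28.8% of the tested miRNAs after TMM scaling. Its log2 fold change there was -0.56, against 0.08 in RPM as deposited, and limma gave an adjusted p of 0.16 without the block and 3.0e-05 with it. miR-23a-3p had 35.5, 30.4 and 51.3 RPM in HFHC-EV on the TMM scale, against 24.3, 19.3 and 39.7 RPM in Chow-EV. The HFHC-EV value was above its pair in 3 of 3, and the ranges overlapped.

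With TMM scaling and the block, 3 of the 7 members were called higher, against 29.8% of the tested miRNAs, and 2 lower, against 19.2%. miR-27b-3p, miR-23b-3p and miR-23a-3p were higher, by 0.87 (SE 0.18), 0.78 (SE 0.15) and 0.51 (SE 0.10) on the log2 scale, for which limma gave adjusted p of 4.1e-04, 1.6e-04 and 3.8e-04. miR-24-3p and miR-23a-5p were lower, with -0.56 (SE 0.09) and -0.39 (SE 0.15) (limma adjusted p = 3.0e-05 and 0.030). edgeR's quasi-likelihood test with the block, on whole reads recovered from the RPM, called 2 higher, against 24% of the tested miRNAs, and 2 lower, against 19.2%. These were miR-23b-3p and miR-23a-3p (log2 fold changes 0.92 and 0.51, edgeR adjusted p = 0.0051 and 0.0073) and miR-24-3p and miR-23a-5p (-0.57 and -0.47, edgeR adjusted p = 0.0024 and 0.047). miR-27a-3p was called in neither of those fits, with log2 fold changes of 0.31 and 0.26. DESeq2 without the block called miR-24-3p lower (-0.59, DESeq2 adjusted p = 0.028), where 11.5% of the miRNAs were called lower. Without the block, limma after TMM scaling called no member, but it called only 0.962% of all tested miRNAs higher and 5.77% lower. edgeR without the block likewise called no member, with 0.962% of the miRNAs called higher and 4.81% lower. miR-24-3p alone of the members was under 0.05 unadjusted in each, as were 12 of the 104 miRNAs in the lower direction.

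**Figure D3:**
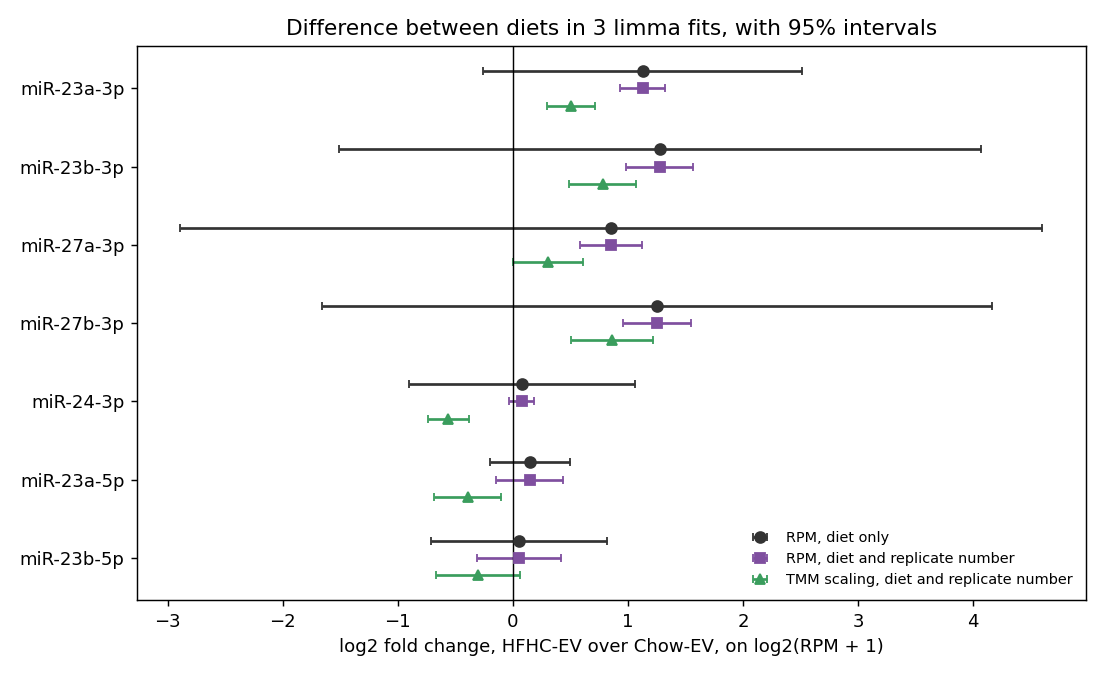
Log2 fold change of HFHC-EV over Chow-EV on log2(RPM + 1) for the 7 tested members, with 95% intervals for the black and violet fits. Black is limma on RPM with diet only, and violet is limma on RPM with diet and replicate number. Green is limma on TMM-scaled RPM with diet and replicate number. The green intervals were drawn with the 208 total degrees of freedom of the violet fit and are too narrow. For miR-27a-3p the green interval, 0.0010 to 0.61, excludes 0, while limma gave an unadjusted p of 0.061 in that fit. Intervals of the fit with diet only all cross 0; with TMM scaling and the number, miR-24-3p lies at -0.56 and miR-23a-3p at 0.51.

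Ratios between members within a library do not depend on how the libraries are scaled. Taken as shares of reads, 8 such ratios were compared between the diets with 2-sided exact permutation tests over 3 against 3 libraries, whose smallest p is 0.1, and Benjamini-Hochberg adjustment over the 8. None reached that smallest p, and the adjusted values lay between 0.60 and 0.90. These tests leave out the pairing. Exact sign-flip tests over the pairs, whose smallest p is 0.25, gave 0.25 for every share that was lower in HFHC-EV in 3 of 3 pairs. The shares that follow are given as a description of these libraries.

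Within the clusters, miR-24-3p made up a smaller part of the reads of the miR-23, miR-27 and miR-24 3p strands in HFHC-EV. Its share was 57.6%, 55.7% and 37.8% in HFHC-EV replicates 1, 2 and 3 (95% intervals 55.7 to 59.4, 53.5 to 57.9 and 36.7 to 39.0), against 75.0%, 78.5% and 48.3% in Chow-EV (73.1 to 76.9, 76.3 to 80.5 and 46.8 to 49.8). It was lower in HFHC-EV in 3 of 3 pairs, with differences of -17.5, -22.8 and -10.4 percentage points, each with intervals that did not meet. The mean difference of -16.9 points gave an exact permutation p of 0.3 over all libraries (adjusted 0.60) and an exact sign-flip p of 0.25 over pairs, the smallest that 3 pairs can give. Against miR-23a-3p alone, a ratio chosen after the values were seen, there were 2.04, 1.76 and 1.63 reads of miR-24-3p per read of miR-23a-3p in HFHC-EV, against 4.44, 4.62 and 2.75 in Chow-EV. Here the diets did not overlap, and the share of miR-24-3p in the sum of both averaged 64.3 ± 2.55% in HFHC-EV and 79.1 ± 4.96% in Chow-EV (SD, n = 3 each; 2-sided exact permutation p = 0.1, the smallest possible).

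Between the clusters, the a form led in every library. miR-23a-3p held 87.7%, 89.0% and 69.6% of the miR-23 3p reads in HFHC-EV, against 93.0%, 89.5% and 75.0% in Chow-EV. Its share was lower in HFHC-EV in 3 of 3 pairs, with a difference of -0.57 points in the pair numbered 2, where the 95% intervals (86.5 to 91.2 in HFHC-EV and 85.4 to 92.8 in Chow-EV) overlapped widely. The mean difference was -3.75 points (exact permutation p = 0.5), with -5.21, -0.57 and -5.48 points within the pairs. Without HFHC-EV replicate 3 it turned to 2.51 points, but that leaves Chow-EV replicate 3 without its partner. miR-27a-3p held 61.6%, 74.3% and 78.9% of the miR-27 3p reads in HFHC-EV, against 76.9%, 94.9% and 83.0% in Chow-EV. That share was also lower in HFHC-EV in 3 of 3 pairs, with a mean difference of -13.3 points (exact permutation p = 0.2, adjusted 0.60). The share of 94.9% rests on 39 reads (95% interval 82.7 to 99.4).

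Within cluster a, the balance of miR-27a-3p and miR-23a-3p followed the replicate number more than the diet. miR-27a-3p held 18.2%, 16.9% and 49.6% of the reads of both in HFHC-EV, against 23.6%, 12.6% and 57.3% in Chow-EV (mean difference -2.93 points, exact permutation p = 0.7). The difference turned to 2.11 or 2.73 points if replicate 1 or 2 of HFHC-EV was left out, and to 10.1 points if Chow-EV replicate 3 was. Each of those leaves a library without its partner. Within the pairs the differences were -5.44, 4.34 and -7.68 points. In cluster b, miR-27b-3p held 49.8%, 36.3% and 37.5% of its reads with miR-23b-3p in HFHC-EV, against 55.0%, 6.25% and 45.2% in Chow-EV (mean difference 5.70 points, exact permutation p = 0.9). That direction rests on Chow-EV replicate 2, whose share is 2 of 32 reads, and without it the difference was -8.92 points.

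Between the strands of a hairpin, the 3p strand had more reads in every library, with 1 tie. miR-23a-5p held 12.5%, 12.8% and 6.02% of the Mir23a reads in HFHC-EV, against 21.9%, 27.6% and 8.98% in Chow-EV. It was lower in 3 of 3 pairs while its own RPM lay between 4.04 and 5.69 in every library (mean difference -9.06 points, exact permutation p = 0.3). miR-23b-5p held 16.4%, 17.7% and 5.01% of its pair in HFHC-EV, against 27.03% and 11.1% in Chow-EV replicates 1 and 3. Chow-EV replicate 2 is the tie, with 30 of 60 reads from each strand. The mean difference was -16.4 points (exact permutation p = 0.3), with 3 of 3 pairs lower in HFHC-EV.

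miR-24-2-5p, the only 5p strand of the miR-24 hairpins among the members, was a trace beside miR-24-3p. It held 1.39% of their sum in HFHC-EV replicate 3, against 0.503%, 0.336% and 1.67% in Chow-EV. In HFHC-EV replicates 1 and 2 there were 0 of 1559 and 0 of 1122 reads, which allows shares of up to 0.192% and 0.267% if a count of 0 is taken to allow 3 reads, while the exact 95% intervals drawn for them reach 0.236% and 0.328%. The mean difference was -0.37 points (exact permutation p = 0.5), with -0.50, -0.34 and -0.28 points within the pairs. It was 0.044 points without Chow-EV replicate 3, which leaves HFHC-EV replicate 3 without its partner.

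**Figure D4:**
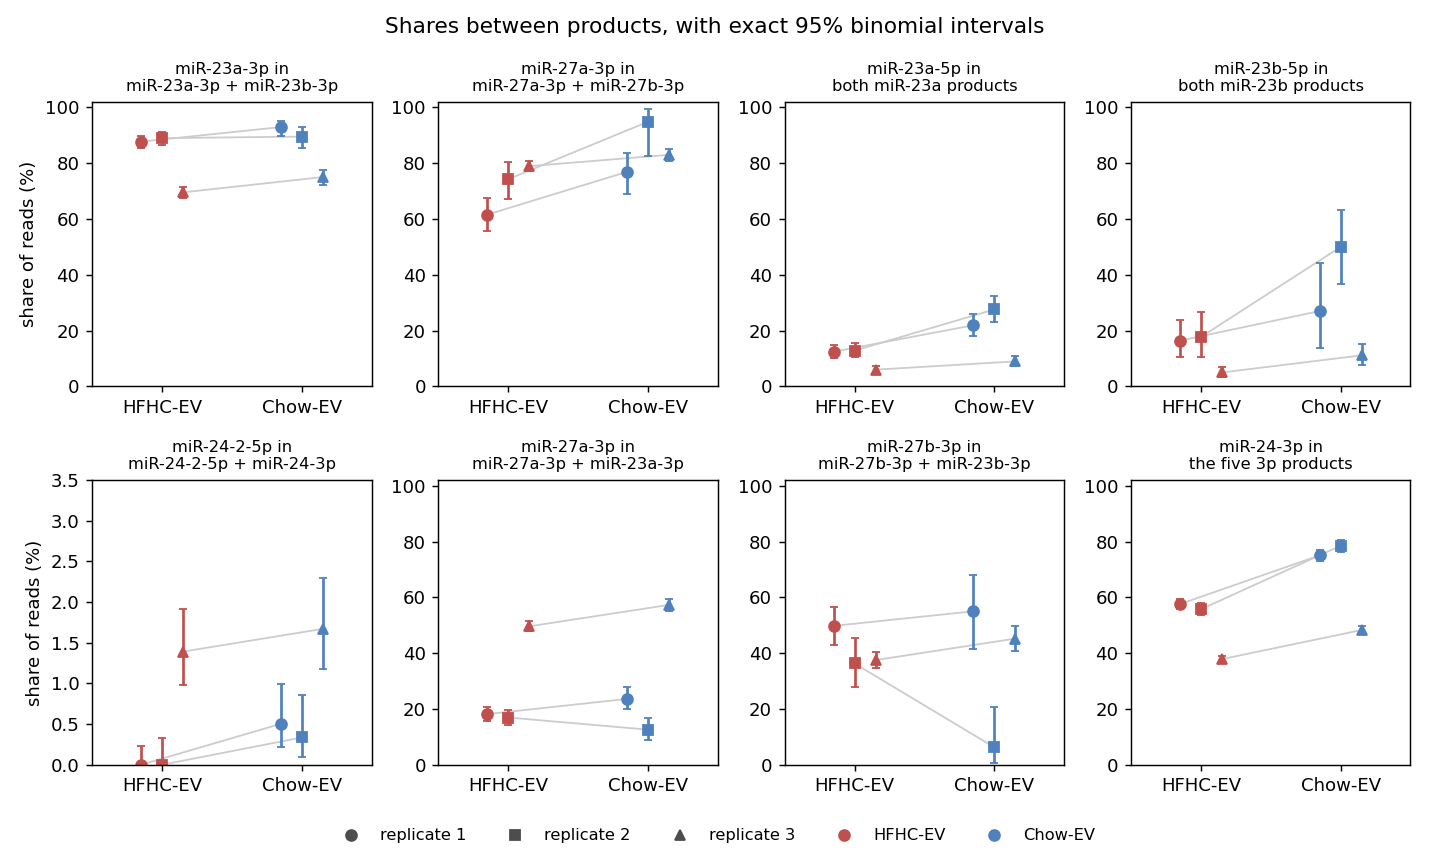
Share of reads (%) that 1 member takes of a sum of members, in HFHC-EV (red, left) and Chow-EV (blue, right), for the 8 shares compared; circles, squares and triangles are replicates 1, 2 and 3, grey lines join same-numbered libraries, and bars are exact 95% binomial intervals of a library. The miR-24-3p share (lower right) is lower in HFHC-EV in all 3 pairs, and replicate 3 stands apart from the others in most panels.

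Other products of the same hairpins are listed too. miR-27a-5p, the partner strand of miR-27a-3p, had 12, 11 and 56 reads in HFHC-EV, against 1, 0 and 24 reads in Chow-EV, and was higher in 3 of 3 pairs. In limma without the filter its log2 fold change was 0.70 (adjusted p = 0.54, and 0.014 with the block, a fit that called 22.3% of 422 miRNAs higher). In edgeR without the filter its adjusted p was 0.78. miR-27b-5p had 9 reads in HFHC-EV replicate 3 and 6 in Chow-EV replicate 3 and none elsewhere, and miR-24-1-5p had a single read, in HFHC-EV replicate 3.

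Levels of miR-27a-3p, miR-23b-3p and miR-27b-3p differed more between replicate 3 and the other replicates of a diet than between the diets. In replicate 3, miR-27a-3p was 10.3 times its mean over replicates 1 and 2 in HFHC-EV and 14.7 times in Chow-EV. The same ratio was 7.37 and 9.47 for miR-23b-3p, 5.45 and 12.6 for miR-27b-3p and 2.23 and 2.64 for miR-23a-3p, in HFHC-EV and in Chow-EV. For miR-24-3p it was 1.91 and 1.61, above the 1.49 and 1.43 of the summed miRNA RPM, and for miR-23a-5p 0.989 and 0.808. The median of that ratio over the 104 tested miRNAs, taken on RPM + 1, was 1.19 in HFHC-EV and 1.18 in Chow-EV. Without both libraries numbered 3, limma in RPM called miR-23a-3p and miR-23b-3p higher (log2 fold changes 1.20 and 1.25, adjusted p = 0.029 and 0.019), where 38.5% of the miRNAs were called higher. With the pair numbered 1 left out, 0% of the miRNAs passed as higher and 0% as lower, and with the pair numbered 2 left out 0% and 0.962% (21 and 19 miRNAs higher and 7 and 5 lower unadjusted), so the absence of a member there says nothing about the members.

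The summed RPM of the endothelial list, the mesenchymal list, the haematopoietic list, the erythroid list and the hepatocyte list was in each case highest in replicate 1 of either diet. Single markers could differ from their list, as with the haematopoietic miR-155-5p, highest in replicate 3 at 1.31 RPM in HFHC-EV and 2.64 RPM in Chow-EV. All 5 sums were higher in HFHC-EV in 3 of 3 pairs, as were 70.2% of the tested miRNAs taken singly, and their part in the differences between the diets was not tested. For the 2 endothelial markers, miR-126a-3p and miR-126a-5p, the sum was 9.49, 2.19 and 4.34 RPM in HFHC-EV, against 5.94, 0.497 and 1.55 RPM in Chow-EV. The haematopoietic sum was 24.9, 7.35 and 11.4 RPM in HFHC-EV, against 22.5, 7.06 and 9.67 RPM in Chow-EV. Its pair folds of 1.11, 1.04 and 1.18 lie under those of the summed miRNA RPM, and its members miR-150-5p and miR-155-5p were lower in HFHC-EV in every pair. The mesenchymal sum lay between 1.77 and 3.86 RPM in HFHC-EV and between 0.103 and 1.84 RPM in Chow-EV. Of the hepatocyte list, 4 of 6 miRNAs had values. miR-122-5p, the defining hepatocyte miRNA, had 14.0, 0.938 and 1.05 RPM in HFHC-EV, against 10.5, 0.745 and 1.09 RPM in Chow-EV. It lay under miR-24-3p in every library. miR-192-5p, with the highest mean of that list, had 12.4, 12.35 and 13.0 RPM in HFHC-EV, against 5.8, 4.3 and 4.1 RPM in Chow-EV. It was higher in HFHC-EV in 3 of 3 pairs, and in HFHC-EV it did not fall after replicate 1 as miR-122-5p did. The erythroid sum, mostly miR-451a, was 148.2, 13.1 and 12.8 RPM in HFHC-EV, against 112.8, 4.72 and 3.62 RPM in Chow-EV. Of the other erythroid markers, miR-486a-5p averaged 3.15 ± 2.74 RPM in HFHC-EV and 2.68 ± 2.53 RPM in Chow-EV (SD, n = 3 each), and miR-486b-5p is listed with identical values.

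In RPM without the block, where 24% of all tested miRNAs were called higher, 1 of 2 tested hepatocyte miRNAs was called higher (miR-192-5p), and 0 of 1 endothelial, 0 of 1 mesenchymal, 0 of 4 haematopoietic and 0 of 3 erythroid. With the block, 1 miRNA of each list was called higher, miR-192-5p, miR-126a-3p, miR-143-3p, miR-146a-5p and miR-451a, and 2 haematopoietic miRNAs lower, miR-150-5p and miR-155-5p, beside 66.3% of all tested miRNAs called higher and 7.69% lower in that fit. After TMM scaling with the block the haematopoietic list had 0 higher and 2 lower. The hepatocyte, endothelial, mesenchymal and erythroid lists had 1 higher and 0 lower each. In that fit 29.8% of all tested miRNAs were called higher and 19.2% lower. Of the miRNAs linked in the literature to cholesterol and lipid handling, the role in which miR-27 is also known, 2 of 6 tested were higher, beside 24% of all tested miRNAs, namely miR-26b-5p and miR-34a-5p (limma adjusted p = 0.0036 and 0.0063). miR-26a-5p, the most abundant of that list, stood at 69.1 ± 24.04 RPM in HFHC-EV and 31.3 ± 9.63 RPM in Chow-EV (SD, n = 3 each; log2 fold change 1.10, limma adjusted p = 0.060). With the block, 4 of the 6 were called higher in RPM, beside 66.3% of all tested miRNAs, and 4 after TMM scaling, beside 29.8%. The median log2 fold change of the 6 in RPM was 1.021, beside 0.51 over the 104.

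The members most like each other over the 6 libraries were the 3p strands of miR-27a and miR-27b, which are 1 base apart, with a Pearson r of 0.97 on log2(RPM + 1), and 0.97 again over the 4 libraries that are not numbered 3. miR-23a-3p and miR-27a-3p, neighbours in cluster a, had 0.88, and 0.91 over those 4 libraries. miR-23b-3p and miR-27b-3p, neighbours in cluster b, had 0.95 and 0.83. Members of different clusters were as much alike over the 6 libraries. miR-23a-3p had 0.95 with miR-27b-3p and 0.94 with miR-23b-3p, and miR-23b-3p had 0.95 with miR-27a-3p. Over those 4 libraries these were 0.93, 0.95 and 0.75. miR-23a-3p and miR-23a-5p, strands of 1 hairpin, had 0.08 over the 6 libraries but 0.62 over those 4. Outside the family, the listed miRNAs most like miR-23a-3p were miR-181b-5p and miR-322-5p (r = 0.99 each), those most like miR-23b-3p were miR-16-5p and miR-15a-5p (0.99 and 0.98), and those most like miR-27a-3p were miR-221-3p and miR-29a-3p (0.99 and 0.98). For miR-27b-3p they were miR-93-5p and miR-328-3p (0.99 and 0.97), for miR-24-3p miR-99a-5p and miR-140-5p (0.99 and 0.93), for miR-23a-5p miR-143-3p and miR-185-5p (0.90 and 0.80), and for miR-23b-5p miR-9b-3p and miR-449a-5p (0.79 and 0.77). Over the 4 libraries not numbered 3, those of miR-23b-5p had r of 0.44 and 0.32, and the others between 0.64 and 0.98. These are descriptions over 6 libraries that form 3 pairs, with the libraries numbered 3 apart from the rest.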

How the data were processed

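Small RNA of 18 to 30 bases from EVs was ligated to adapters, reverse transcribed and amplified, per the labels' protocols. Bowtie2 and GRCm38.p6 are named in the submitters' processing notes; the annotation, the assignment of reads that fit several miRNAs and the denominator of the RPM were not given in sources used here. The authors deposited RPM, 1 table per library with 474 miRNAs. Values were whole multiples of 1 step (100% within 0.1 of a read in every library), so reads were recovered, with denominators of 19114800 to 20122500 reads. Diets were compared with limma-trend (version 3.58.1 in R 4.3.3) on log2(RPM + 1) for a mean of at least 1 RPM, diet as the only term, with Benjamini-Hochberg adjustment. edgeR (4.0.16) and DESeq2 (1.42.0) on recovered reads were alternatives; the scripts were tested on simulated data. The limma log2 fold changes are on the scale of log2(RPM + 1), which understates low miRNAs. Those of edgeR and DESeq2 come from models of the recovered reads and are not on that scale. Shares use recovered reads and exact Clopper-Pearson intervals; their tests are exact permutation tests, 2-sided. Replicates differed beyond sampling noise, with chi-square over its degrees of freedom no lower than 33.8, so none was counted as a repeat.

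Nothing in the labels ties a replicate number to a mouse or a day. Deviations from the diet means over 104 miRNAs correlated at 0.94, 0.89 and 0.95 between same-numbered libraries and between -0.82 and 0.03 for the other combinations; on this ground the numbers were taken to pair the samples. The members, lists and tests were chosen with earlier results of these data known. Named miRNAs are the 8 members, other products of their hairpins, the 2 most correlated known miRNAs for each tested member, and, of each marker and lipid list, the 2 most abundant tested members; miR-26b-5p, miR-155-5p and miR-126a-5p were added after their values were seen. Positions come from RefSeq and GENCODE M21 on GRCm38.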

Additional observations from a re-analysis of the deposited data

How the results depend on the processing

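Under the alternatives, 100 values of the members' log2 fold changes kept direction and side of the threshold. Another 14 newly passed it in the same direction and 28 turned sign. Of those that turned sign, 5 were called lower, 3 for miR-24-3p and 2 for miR-23a-5p. In limma, removing the filter or adding the block left the log2 fold changes as they were, so those values kept direction by construction. The turns with TMM scaling are the same with and without the block and are counted for each. The tally therefore does not count independent checks. miR-24-3p turned to -0.56 with TMM scaling with and without the replicate block, -0.55 in edgeR, -0.57 in edgeR with the block, -0.59 in DESeq2, -0.64 in edgeR without the filter and -0.0040 without both libraries numbered 3. miR-23a-5p turned to -0.39 with TMM scaling with and without the block, and to -0.50, -0.47, -0.53 and -0.59 in edgeR, edgeR with the block, DESeq2 and edgeR without the filter. miR-23b-5p turned to -0.30 with TMM scaling with and without the block, to -0.63, -0.57, -0.67 and -0.68 in the same 4 fits, and to -0.16 without both numbered 1. miR-27a-3p turned to -0.044 in DESeq2 and -0.066 in edgeR without the filter. TMM, edgeR and DESeq2 remove the shift of the median by construction; the cause of the other turns was not tested. Leaving out 1 library moved miR-27a-3p between -0.22 and 2.09, miR-24-3p between -0.24 and 0.35, miR-23b-5p between -0.21 and 0.21, miR-23a-3p between 0.75 and 1.58, miR-23b-3p between 0.39 and 2.14 and miR-27b-3p between 0.46 and 2.20, and no member was then called. miR-27a-3p and miR-24-3p were negative without HFHC-EV replicate 3 or Chow-EV replicate 2, and miR-23b-5p without HFHC-EV replicate 3 or Chow-EV replicate 1. Each fit or share with 1 library left out keeps the partner of that library unpaired. With both libraries numbered 1, 2 or 3 left out instead, miR-27a-3p had log2 fold changes of 1.00, 0.56 and 1.01. Members called higher numbered 4 with the replicate block, 3 with TMM scaling and the block, 2 in edgeR with the block, 2 without both libraries numbered 3 and 3 with the block and no filter, against 0. Members called lower numbered 2 with TMM scaling and the block, 2 in edgeR with the block and 1 in DESeq2, against 0. Among all miRNAs 25 were called higher and 5 lower; higher calls were 1 with TMM scaling, 60 without the filter, 69 with the block, 1 in edgeR, 7 in DESeq2, 40 without both numbered 3, 94 with the block and no filter, 0 in edgeR without the filter and 13 to 32 without 1 library. Lower calls were 22 without the filter, 8 with the block, 20 with TMM scaling and the block, 20 in edgeR with the block, 12 in DESeq2, 27 with the block and no filter, 2 in edgeR without the filter and 4 without any 1 library. With the pair numbered 1 or the pair numbered 2 left out, limma called 0 and 0 higher (21 and 19 unadjusted) and 0 and 1 lower (7 and 5 unadjusted). For edgeR without the filter, 45 were higher and 40 lower unadjusted. The fits without the filter that use edgeR or the block were chosen after seeing the data. Leaving out 1 library moved the difference in the share of miR-23a-3p between -9.15 and 2.51 points, of miR-24-2-5p between -0.84 and 0.044, of miR-27a-3p against miR-23a-3p between -13.6 and 10.1 and of miR-27b-3p against miR-23b-3p between -8.92 and 15.5; the last was -0.024 as a log2 ratio. The other shares kept their direction, miR-24-3p between -26.4 and -10.6 points. Depth limits miR-24-2-5p, miR-23b-5p and miR-27b-3p, which rest on 0 to 45 reads in several libraries. It also limits miR-23b-3p, with 27 and 30 reads in Chow-EV replicates 1 and 2, and miR-27a-3p, with 37 in Chow-EV replicate 2.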
